A study of Sus scrofa with 6 samples.

Results

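The genes described here build the adhesive contacts of heart muscle: integrin chains and the proteins that bind them inside the cell, cadherins, desmosomal proteins, laminins, the dystrophin complex and caveolins. They were taken by gene symbol (integrin alpha and beta chains, numbered cadherins without CDH5, desmosomal and plakophilin families, laminin chains, sarcoglycans, caveolins, alpha-catenins and talins, with DSP, JUP, DMD, VCL, PARVA and DLC1 by name) from the probe sets that the platform annotation gives a single symbol, and each gene was read at its probe set of highest mean log2 signal. This gave 35 genes with 57 probe sets, out of 6765 genes with a single-symbol probe set. ITGB1BP2 and CTNNAL1 belong to the set through the first letters of their symbols, as a binding partner of the beta 1 integrin and a relative of the alpha-catenins. DAG1, UTRN, ILK, CDH2, PKP2, the desmogleins and desmocollins, TLN2, CAV3, LAMA2 and the other sarcoglycans were not analysed here.

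The left ventricular (LV) free wall of 6 Large White piglets was profiled on Affymetrix Porcine Genome Arrays, with 1 animal per array. Dox piglets (n = 3) received a single intravenous injection of doxorubicin, an anthracycline that damages heart muscle, at 2.0 mg/kg, and PBS piglets (n = 3) received phosphate-buffered saline. By the labels, injection was at 8 days of age and the tissue of both groups was taken 3 weeks later, at 28 days, while the methods of the study give a range of doses, a slightly earlier injection and a slightly later sampling day. The comparison asks how the failing ventricle differs from the control ventricle of the same age.

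Integrins are receptors of an alpha and a beta chain that hold the extracellular matrix, including laminin and fibronectin, and pass its pull to actin through talin and vinculin. In heart muscle they sit at the costameres, the ribs that tie the sarcomeres to the cell membrane, together with dystrophin and the sarcoglycans, which reach the laminin of the basement membrane through dystroglycan. End to end, cardiomyocytes are joined at the intercalated disc by cadherins and by desmosomes, in which desmoplakin and plakoglobin fasten the intermediate filaments. Caveolins shape small pits of the membrane. The arrays measured a piece of whole tissue, so fewer cells of a type and less RNA per cell cannot be told apart.

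Values are MAS5 signals, the linear probe set intensities that Affymetrix software computes, and they allow comparison of the same probe set between arrays but not of one gene with another. The Tag probe sets, which match no pig sequence, reached 2.5 to 6.3 on the 6 arrays. A gene was read as above this Tag range where its signal exceeded the highest Tag signal of the same array. By this measure 25 of the 35 members lay above it on all 6 arrays and 27 on at least 3. The other 8 (CDH1, CDH3, CDH6, CDH24, ITGA2, ITGA6, ITGAM and ITGB7) lay within it on at least 4 arrays, at signals from 0.0 to 5.0, and no fold is given for them.

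The LV samples carried the markers of heart muscle, with 11 of 11 measured cardiomyocyte markers above the Tag range, while the epithelial markers CDH1, EPCAM, KRT18 and KRT19 and the skeletal muscle markers MYH2 and TNNT3 were within it. Other markers of these lists were above it, the keratin KRT8 at 154.8, 210.7 and 296.2 in Dox and 17.5, 54.0 and 63.5 in PBS, the fast light chain MYL1 at 21.9, 16.4 and 24.4 in Dox and 74.4, 242.4 and 46.6 in PBS, and CKM and, on 4 arrays, TNNI2. Array Dox 3 stood apart, with Pearson correlations of 0.897 to 0.916 with the other arrays, against 0.925 to 0.945 among those. Hybridization controls added to every sample were brighter on the Dox arrays (geometric means 973.7, 908.3 and 1259) than on the PBS arrays (712.3, 757.6 and 782.1). The ratio of 3′ to 5′ actin signal, which grows as RNA is degraded, was 6.04, 3.96 and 2.2 on Dox arrays and 2.63, 2.28 and 1.96 on PBS arrays. The part of these features in the results was not tested.

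None of the 35 members passed the threshold in limma, a Benjamini-Hochberg adjusted p no larger than 0.05 and a difference of 2-fold or more, and over the whole array the share called was likewise 0%, or 0 of 23999 probe sets. The smallest adjusted p of a member was 0.521. At an unadjusted p of at most 0.05 in limma, 2 members were higher in Dox (DLC1 and DMD), where the background over all genes was 4.92%, and 2 were lower (ITGAV and LAMB1), where it was 6.61%. The 3 Dox signals all lay above the 3 PBS signals for 2 members (DLC1 and DSP; background 9.06%) and all below them for 5 (ITGAV, ITGA8, ITGA6, LAMB1 and TLN1; background 10.4%). The order of ITGA6, within the Tag range on all 6 arrays, and of ITGA8, within it on 2 Dox arrays, was not read further. The count of lower members at this p was 0 without PBS 1, where 2.5% of all genes were lower. That of higher members was 1 without Dox 2, PBS 1 or PBS 3, where 2.94%, 2.07% and 3.27% of all genes were higher. With all 6 arrays, the members' shares were near those of all genes. The median log2 difference, Dox minus PBS, was 0.01 over the 35 members, with 18 above 0 and 17 below, and −0.07 over all genes.

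Directions rest on the MAS5 scaling, which sets the trimmed mean of every array to the same value. When the arrays were scaled to the hybridization controls instead, the median of all genes moved to −0.53 and that of the members to −0.46, and 0 members were higher and 12 lower at the unadjusted p, beside 0.783% and 24.3% of all genes. The differences below are therefore relative to the bulk of genes on the array.

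**Figure D1:**
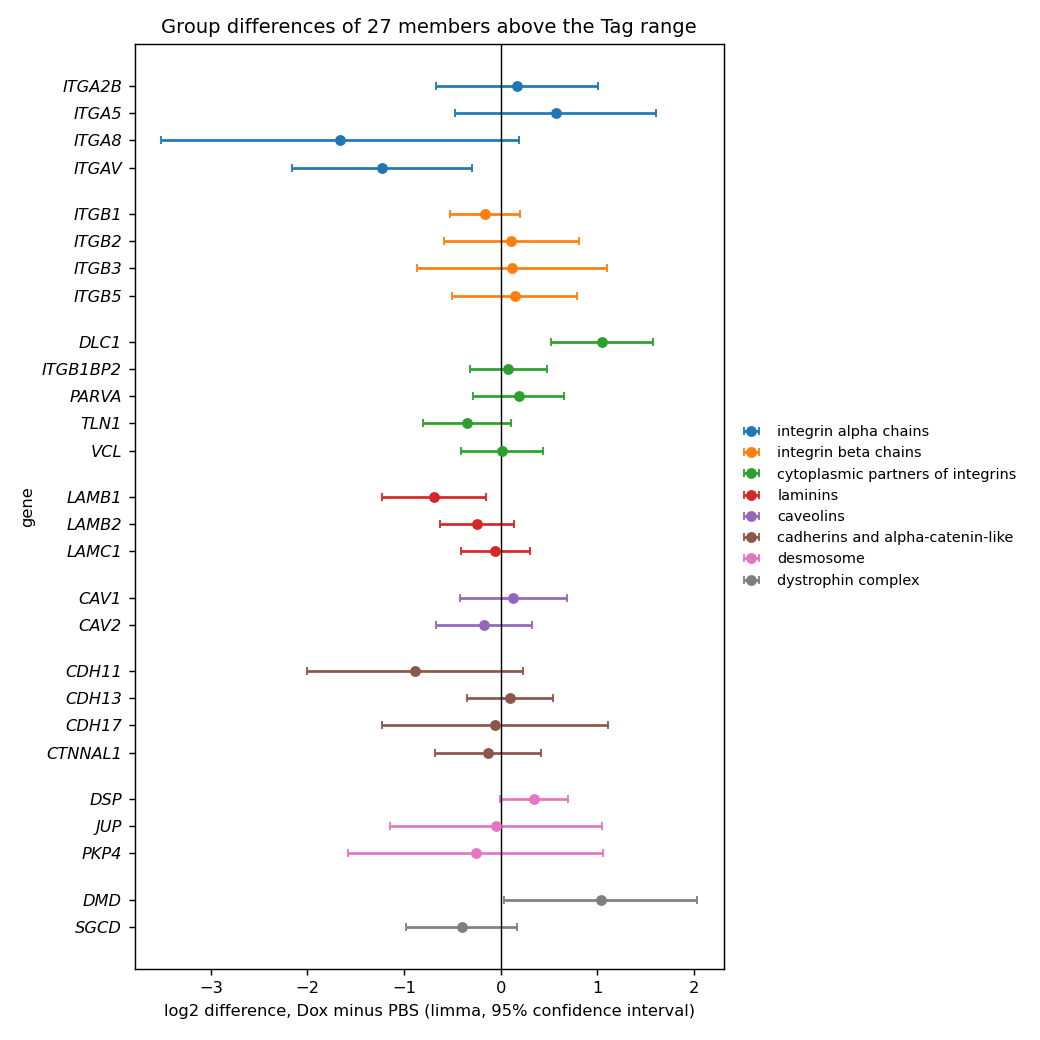
Log2 difference, Dox minus PBS, of the 27 members above the Tag range on at least 3 arrays, by role (points, limma estimates from 3 Dox and 3 PBS arrays; bars, 95% confidence intervals). The intervals of ITGAV and LAMB1 lie below 0, those of DLC1 and DMD above 0, and the other 23 include 0.

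Among the integrin alpha chains, ITGAV stood out with lower signals in Dox. It encodes the alpha V chain, which pairs with several beta chains to bind vitronectin and fibronectin. Its signals were 286.3, 322.6 and 102.9 in Dox piglets, against 575.8, 533.1 and 400.3 in PBS piglets. All Dox signals were under the lowest PBS signal, and Dox 3 was the lowest of the 6. The log2 difference was −1.23 (SE 0.41), a fold of 0.426, with an unadjusted p of 0.0158 and an adjusted p of 0.521 in limma. Without array Dox 3 the difference was −0.71.

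Of the beta chains among the members that can pair with alpha V, none differed between the groups beyond the spread of the animals. ITGB1, the main beta chain of heart muscle, gave 987.5, 1025.0 and 1121.4 in Dox and 1297.9, 1059.6 and 1163.2 in PBS, with overlapping groups and a 95% interval of the log2 difference from −0.53 to 0.20. ITGB5 ranged from 216.0 to 451.8 in Dox and from 267.3 to 336.5 in PBS. ITGB3, also the beta chain of the platelet fibrinogen receptor, ranged from 23.6 to 44.8 in Dox and from 21.4 to 56.3 in PBS. Their 95% intervals were wide, from −0.50 to 0.79 for ITGB5 and from −0.87 to 1.10 for ITGB3. Set against these partners on the same array, the log2 ratio of ITGAV to ITGB5 differed by −1.37, Dox minus PBS, and that of ITGAV to ITGB1 by −1.07, both with groups that did not overlap. The ratio of ITGAV to ITGB3 differed by −1.35, with overlap. These ratios are descriptions and were not tested.

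ITGA8, the alpha chain that pairs with beta 1 on mesenchymal cells, was dim. Its signals were 4.1, 4.6 and 0.6 in Dox and 5.5, 8.1 and 8.0 in PBS, and it exceeded the Tag range on 4 arrays, 1 of them a Dox array. Since Dox 1 and Dox 3 were within the Tag range, no order between the groups and no difference was read from these signals. The gene's other 2 probe sets were dimmer still, at 0.3 to 5.2.

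ITGA5, the alpha chain of the classical fibronectin receptor, differed on 1 array only. It gave 114.6, 146.5 and 447.8 in Dox and 142.1, 121.8 and 132.5 in PBS. The second probe set of the gene showed the same array apart, at 10.0, 8.2 and 47.1 in Dox against 7.5, 8.6 and 7.3 in PBS. Both probe sets therefore had their single high value on Dox 3, with Dox 1 and Dox 2 close to the PBS range.

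The integrin chains known from blood cells showed overlapping groups. ITGA2B, the platelet alpha chain, ranged from 10.7 to 19.1 in Dox and from 12.5 to 13.7 in PBS. ITGB2, the common beta chain of leukocyte integrins, ranged from 33.1 to 39.1 in Dox and from 23.8 to 41.6 in PBS. ITGAM, a partner of ITGB2 on myeloid cells, was within the Tag range on 4 arrays. Of the 9 measured leukocyte markers of 14, PTPRC, CD3D and CD2 were within the Tag range. Of all 9, 6 had a log2 difference above 0 and 3 below. At the unadjusted p in limma 2 were higher (S100A8 and S100A9) and 0 lower, where 4.92% of all genes were higher and 6.61% lower. The summed signal of the 9 was 445.1 to 1259 in Dox against 311.3 to 416.4 in PBS. Of this sum, S100A9 alone gave 56.9, 681.5 and 185.9 in Dox and 9.2, 7.8 and 27.5 in PBS. AIF1, a macrophage marker, ranged from 45.0 to 113.4 in Dox and from 97.2 to 120.4 in PBS. CD163 and CD14 of the same list lay the other way on average. CD163 ranged from 250.7 to 459.2 in Dox and from 190.3 to 265.9 in PBS, and CD14 from 5.8 to 16.2 and from 4.5 to 6.6. Each of these markers overlapped between groups. The part of these cells in the member signals was not tested.

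**Figure D2:**
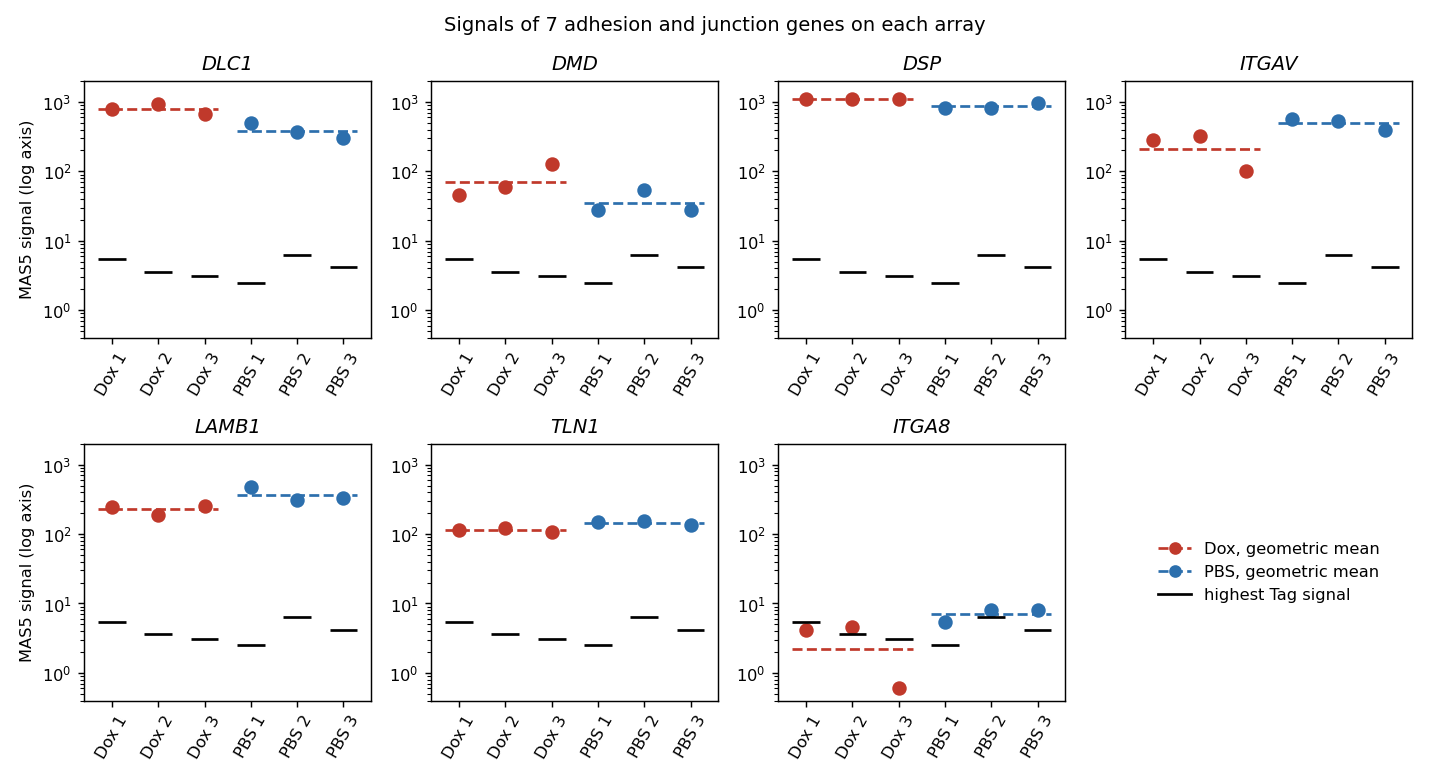
MAS5 signal (log axis) of 7 members on each of the 6 arrays (red, Dox; blue, PBS; dashed line, geometric mean of the 3 arrays; black bar, highest Tag signal of the array). DLC1 and DSP lie higher on every Dox array, ITGAV, LAMB1 and TLN1 lower, DMD overlaps through PBS 2, at 53.6 against 46.3 on Dox 1, and ITGA8 is within the Tag range on Dox 1 and Dox 3.

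On the cytoplasmic side of the integrins, DLC1 had the smallest p of all members. It encodes a protein that binds tensin and talin at focal adhesions. Its signals were 783.0, 933.4 and 662.6 in Dox piglets, against 492.2, 372.0 and 300.1 in PBS piglets, with no overlap. The log2 difference was 1.05 (SE 0.23), a fold of 2.07, with an unadjusted p of 0.00163 and an adjusted p of 0.521 in limma. The exact two-sided permutation test over the 6 arrays gave p = 0.1, the smallest it can give with 3 arrays against 3. The difference ran from 0.88 to 1.23 when single arrays were left out.

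TLN1, talin 1, which links the beta chain to actin, gave 115.5, 121.4 and 107.1 in Dox and 151.1, 153.4 and 134.1 in PBS. The groups did not overlap, though the step was small next to its error, with a log2 difference of −0.35 (SE 0.20; unadjusted p 0.112, adjusted p 0.581 in limma). A second, dimmer TLN1 probe set overlapped between groups, at 4.9 to 5.6 in Dox and 3.5 to 5.8 in PBS.

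The other cytoplasmic partners overlapped between the groups. VCL, vinculin, which joins talin to actin, gave 1484.1, 1302.7 and 1955.2 in Dox and 1631.0, 1439.8 and 1573.3 in PBS, so that its highest and its lowest signal were both on Dox arrays. PARVA, alpha-parvin, an actin-binding partner of integrin-linked kinase, ranged from 200.4 to 237.4 in Dox and from 157.5 to 216.8 in PBS. ITGB1BP2, melusin, a muscle protein that binds the beta 1 tail, ranged from 636.0 to 749.9 in Dox and from 592.9 to 750.9 in PBS, and its second probe set from 568.2 to 679.6 in Dox and from 580.3 to 656.2 in PBS. The 95% intervals of the log2 differences were −0.41 to 0.43 for VCL, −0.28 to 0.66 for PARVA and −0.32 to 0.48 for ITGB1BP2.

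The laminins were measured as 3 chains of the basement membrane around each muscle fibre and vessel. At their brightest probe sets all 3 had a log2 difference below 0, where 3786 of 6765 genes were below 0. At the unadjusted p 1 of them was lower, where 6.61% of all genes were lower. LAMB1, the beta 1 chain, gave 243.4, 187.4 and 256.2 in Dox and 482.3, 309.9 and 331.1 in PBS. All Dox signals were below all PBS signals. The log2 difference was −0.69 (SE 0.24), a fold of 0.618, with an unadjusted p of 0.0173 and an adjusted p of 0.521 in limma, and −0.50 without PBS 1. Its second probe set, with 10.2, 14.9 and 21.1 in Dox and 30.4, 29.0 and 28.3 in PBS, was also separated.

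LAMB2, the beta 2 chain, which can take the place of beta 1 in the laminin trimer, ranged from 1199.7 to 1453.0 in Dox and from 1314.5 to 1664.4 in PBS. LAMC1, the gamma 1 chain shared by most laminins of muscle, gave 2600.9, 2089.9 and 2316.9 in Dox and 2347.3, 2228.4 and 2702.6 in PBS. Both overlapped between groups, with log2 differences of −0.25 (SE 0.17) for LAMB2 and −0.06 (SE 0.16) for LAMC1. The log2 ratio of LAMB1 to LAMC1 on the same array differed by −0.64, Dox minus PBS, without overlap, and that of LAMB1 to LAMB2 by −0.45 with overlap. The 3 dimmer LAMC1 probe sets did not follow the brightest one and had log2 differences above 0, at 0.43, 0.82 and 0.12. All 3 were highest on Dox 3, the clearest with 42.3, 65.5 and 118.6 in Dox against 45.0, 34.7 and 38.3 in PBS.

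**Figure D3:**
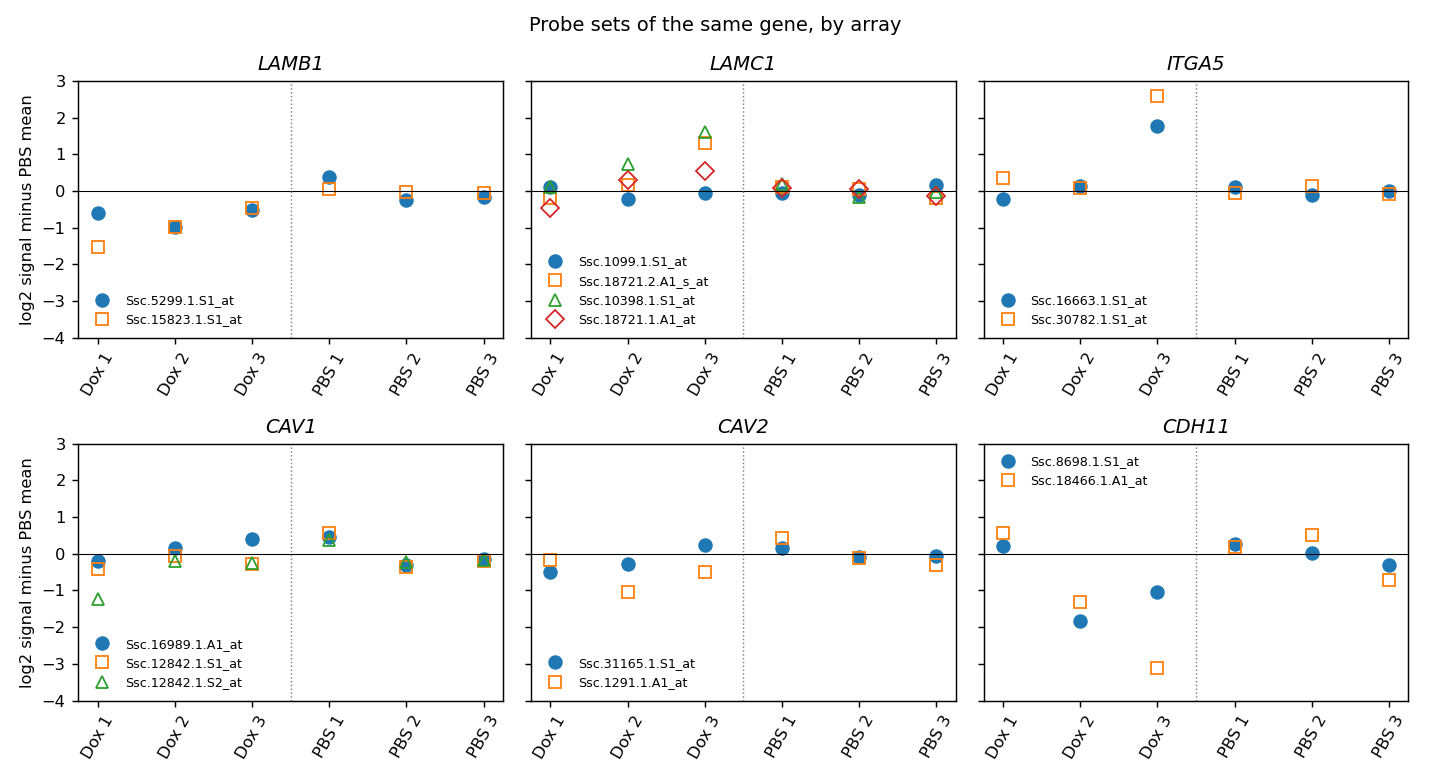
Log2 signal minus the mean of the 3 PBS arrays for 6 genes, showing every probe set that cleared the Tag range on 3 arrays or more (points, single arrays, Dox left of the dotted line and PBS right; filled circle, the brightest probe set; open symbols, the others). Both LAMB1 probe sets lie below 0 on every Dox array, and both ITGA5 probe sets are highest on Dox 3. On Dox 3 the dimmer LAMC1 probe sets lie above the brightest and the dimmer CAV1 and CAV2 probe sets below it.

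Of the 10 members with at least 2 probe sets that cleared the Tag range on 3 arrays or more, 6 had log2 differences of a single sign and 4 (CAV1, ITGB1BP2, LAMC1 and TLN1) had both signs.

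Of 21 genes listed for the basement membrane and the matrix around it 11 were measured. At the unadjusted p, 0 were higher and 3 lower in Dox, where 4.92% of all genes were higher and 6.61% lower, and the median log2 difference was −0.32. COL6A3, a chain of the collagen VI that surrounds muscle fibres, gave 878.3, 422.3 and 602.4 in Dox and 1224.2, 1017.5 and 1309.1 in PBS (log2 difference −0.96, SE 0.27). COL15A1, a collagen of the basement membrane zone, gave 860.2, 225.4 and 112.4 in Dox and 1794.3, 838.1 and 1552.3 in PBS (−2.25, SE 0.65). FN1, fibronectin, a ligand of the alpha V and alpha 5 integrins, gave 608.9, 240.6 and 263.0 in Dox and 1485.8, 553.0 and 647.2 in PBS (−1.26, SE 0.45).

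COL6A3 was separated between the groups, while COL15A1 and FN1 overlapped through Dox 1. The unadjusted p in limma was 0.00636 for COL6A3, 0.00799 for COL15A1 and 0.0215 for FN1, and the adjusted p was 0.521 for each. The difference of FN1 was −0.69 in the mean of its probe sets and −0.82 without PBS 1, and that of COL15A1 ran from −3.06 to −1.59 when single arrays were left out.

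Markers of fibroblasts and endothelium were read on the same arrays, with none past the adjusted threshold. All 8 measured fibroblast markers of 10 had a log2 difference below 0, 4 at the unadjusted p (6.61% of all genes were lower at this p, and 3786 of 6765 were below 0), and their summed signal was 1352 to 3009 in Dox against 3295 to 4612 in PBS. Of the 9 measured endothelial markers, 7 were below 0, 2 at the unadjusted p against the same background, and their sum was 1440 to 1479 in Dox against 1563 to 2361 in PBS. Of 11 cardiomyocyte markers, 9 were above 0 and 2 below, 1 of them higher at the unadjusted p (4.92% of all genes). Their sum was 53553.8 to 69616.7 in Dox against 44413.4 to 54182.7 in PBS. The sum of 7 smooth muscle and pericyte markers, 3 above 0 and 4 below, was 3347 to 4168 in Dox against 3475 to 5124 in PBS. Such sums weigh the brightest genes most, and the sum of all genes was 2323972.6 to 2606434.3 in Dox against 2142202.0 to 2281284.1 in PBS. No defining marker of fibroblasts or endothelium was at 0 in either group. The part of these cell types in the lower ITGAV, LAMB1 and matrix signals was not tested.

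The caveolins CAV1 and CAV2, which lie next to each other in the pig genome, overlapped between groups. CAV1 gave 952.8, 1216.4 and 1435.4 in Dox and 1477.1, 871.6 and 984.8 in PBS at its brightest probe set, and CAV2 ranged from 530.7 to 890.3 in Dox and from 705.7 to 831.9 in PBS. A dimmer CAV2 probe set ranged from 71.3 to 131.6 in Dox and from 118.8 to 197.2 in PBS, and the dimmest of CAV1 from 140.6 to 292.9 in Dox and from 284.2 to 435.1 in PBS, again with overlap. Of 15 listed partners of caveolae 6 were measured, with 0 higher and 1 lower at the unadjusted p (4.92% and 6.61% of all genes) and a median log2 difference of −0.09. That gene was CAVIN2, a coat protein of caveolae, at 297.8, 219.0 and 221.7 in Dox against 531.4, 356.1 and 355.1 in PBS (log2 difference −0.74, SE 0.23, unadjusted p 0.0123, adjusted p 0.521 in limma).

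At the cell-to-cell contacts, the cadherins showed no separated member. CDH13, T-cadherin, a membrane-anchored cadherin without a cytoplasmic tail, ranged from 1721.8 to 2284.1 in Dox and from 1506.2 to 2209.4 in PBS. CDH11, a cadherin of mesenchymal cells, gave 72.6, 17.4 and 30.6 in Dox and 75.9, 63.7 and 50.5 in PBS, with Dox 2 and Dox 3 under every PBS array and Dox 1 within the PBS range. A second CDH11 probe set gave 11.4, 3.1 and 0.9 in Dox and 8.8, 11.1 and 4.7 in PBS. Its Dox 2 and Dox 3 signals were within the Tag range, so no order was read from it. CTNNAL1, alpha-catulin, ranged from 79.4 to 110.8 in Dox and from 89.6 to 122.1 in PBS. CDH17, a cadherin of gut epithelium, was near the Tag range at 2.9 to 6.0 in Dox and 4.0 to 5.8 in PBS.

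The epithelial cadherin CDH1 and its genomic neighbour CDH3, the placental cadherin, were within the Tag range on all or nearly all arrays, as were CDH6 and CDH24. CDH1 gave 1.9 to 2.9 in Dox and 1.9 to 3.4 in PBS. Its second probe set, at 0.2, 2.6 and 2.3 in Dox and 3.0, 4.6 and 7.9 in PBS, was above the Tag range on PBS 1 and PBS 3 only.

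In the desmosome, DSP, desmoplakin, which anchors the intermediate filaments, gave 1091.7, 1108.3 and 1086.2 in Dox and 815.8, 816.9 and 968.2 in PBS. The Dox animals were close to each other and all above the PBS animals. The log2 difference was 0.34 (SE 0.15), a fold of 1.27, with an unadjusted p of 0.0559 and an adjusted p of 0.528 in limma, and it turned to −0.12 when the arrays were scaled to the hybridization controls. Its second probe set, above the Tag range on some arrays, overlapped at 1.7 to 7.8 in Dox and 3.3 to 5.5 in PBS.

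JUP, plakoglobin, the catenin shared by desmosomes and cadherin junctions, gave 6.6, 17.0 and 17.0 in Dox and 16.3, 9.6 and 13.5 in PBS. PKP4, a relative of the plakophilins, ranged from 3.6 to 14.4 in Dox and from 9.3 to 13.0 in PBS. Both overlapped between groups and were dim. Their lowest arrays differed, Dox 1 for JUP and Dox 3 for PKP4.

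Of 33 other genes listed for the intercalated disc and other junctions 21 were measured, with 4 higher and 2 lower at the unadjusted p (4.92% and 6.61% of all genes) and a median log2 difference of −0.07. One of the 4, CTNND1, was above the Tag range on 2 arrays only. XIRP1, the Xin protein that binds actin at the disc, gave 1658.5, 3721.9 and 7131.6 in Dox and 850.0, 1534.3 and 1193.0 in PBS. No Dox array lay within the PBS range, and the log2 difference was 1.61 (SE 0.47, unadjusted p 0.00833, adjusted p 0.521 in limma), or 1.10 without Dox 3. CTNNB1, beta-catenin, was separated too, at 2136.7, 2168.7 and 2033.0 in Dox against 1515.3, 1643.8 and 1703.9 in PBS. Its log2 difference of 0.38 (SE 0.14) turned to −0.14 in the mean of all its probe sets and to −0.08 under scaling to the hybridization controls.

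The 2 lower genes were receptors or seals of the junction. CXADR, the virus receptor that serves as an adhesion protein of the disc, gave 289.9, 140.2 and 162.3 in Dox and 382.6, 280.0 and 320.1 in PBS, with overlap through Dox 1 (log2 difference −0.79, SE 0.29). OCLN, occludin, a protein of tight junctions, gave 27.2, 25.3 and 29.3 in Dox and 52.2, 38.2 and 42.1 in PBS, without overlap (−0.69, SE 0.27). The adjusted p was 0.521 for both in limma.

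In the dystrophin complex, DMD was higher in Dox on average. It encodes dystrophin, which binds actin below the membrane, and gave 46.3, 59.8 and 128.5 in Dox and 27.8, 53.6 and 27.9 in PBS. PBS 2 lay above Dox 1, so the groups overlapped. The log2 difference was 1.03 (SE 0.44), a fold of 2.05, with an unadjusted p of 0.0446 and an adjusted p of 0.521 in limma. Without Dox 3, the array with the highest signal, it was 0.60.

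SGCD, delta-sarcoglycan, a membrane partner of dystrophin, gave 165.4, 152.0 and 96.5 in Dox and 160.9, 189.8 and 184.3 in PBS. The groups overlapped through Dox 1, with a 95% interval of the log2 difference from −0.98 to 0.17. On Dox 3 the members of the complex lay apart, with DMD at its highest signal of the 6 arrays and SGCD at its lowest.

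Of 24 genes listed as dystrophin-associated or as glycosylating dystroglycan 8 were measured, with 1 higher and 0 lower at the unadjusted p (4.92% and 6.61% of all genes) and a median log2 difference of 0.09. The higher one was SYNM, synemin, an intermediate filament protein that binds the complex, at 741.2, 1310.2 and 1614.0 in Dox against 764.3, 799.2 and 692.1 in PBS. Dox 1 lay within the PBS range, and the log2 difference was 0.63 (SE 0.27, unadjusted p 0.0493, adjusted p 0.523 in limma).

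Of 35 genes listed for the focal adhesion 14 were measured, with 0 higher and 2 lower at the unadjusted p (4.92% and 6.61% of all genes) and a median log2 difference of 0.02. FLNA, filamin A, an actin cross-linker that also binds beta chains, gave 80.3, 104.9 and 74.4 in Dox and 215.9, 131.7 and 123.3 in PBS (log2 difference −0.83, SE 0.28). RSU1, a protein of the complex around integrin-linked kinase, gave 18.1, 30.5 and 28.5 in Dox and 70.8, 47.5 and 36.3 in PBS (−0.99, SE 0.36). Neither overlapped between groups, and the adjusted p was 0.521 for both in limma.

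**Figure D4:**
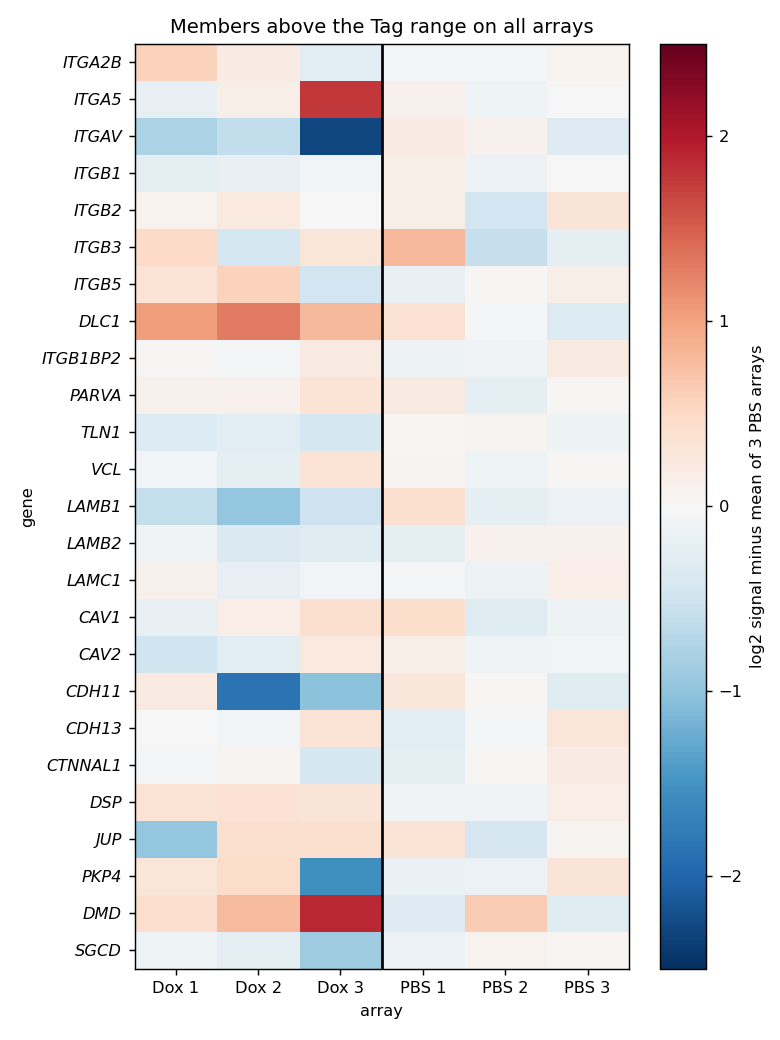
Log2 signal minus the mean of the 3 PBS arrays (colour scale) for the 25 members above the Tag range on all 6 arrays, in rows by role, with the 3 Dox arrays left of the line and the 3 PBS arrays right of it. ITGAV, DLC1 and LAMB1 keep their colour over the Dox arrays, and ITGA5, DMD, PKP4 and SGCD are strongest on Dox 3.

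The Dox arrays were not alike. With 1 animal per array, a difference between animals and one between arrays or RNA samples cannot be told apart. Among the 25 members above the Tag range on all arrays, the Dox array furthest from the PBS mean was Dox 3 for 12, Dox 2 for 8 and Dox 1 for 5, and the median absolute log2 distance was 0.41 on Dox 3, 0.27 on Dox 2 and 0.24 on Dox 1. CDH11 was the member in which Dox 2 and Dox 3 were both far below Dox 1. JUP was the member in which Dox 1 lay furthest below both other Dox arrays.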

How the data were processed

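Total RNA of the LV free wall was hybridized to 6 arrays, 3 Dox and 3 PBS, and samples were grouped from their labels. The deposited values are intensities, MAS5 signals that the authors computed with GCOS 1.4, with a 2% trimmed mean of about 100 per array (100.03 to 100.04). Of 24123 probe sets, 124 array controls were left out. Zeros were raised to 0.1 and log2 was taken. In R 4.3.3, limma 3.58.1 (lmFit, eBayes with an intensity trend) was fitted to all 6 arrays, with Benjamini-Hochberg adjustment over 23999 probe sets, and calls needed an adjusted p of at most 0.05 and a fold of at least 2. With 3 arrays a group, their number limits the precision. Names came from the platform annotation (10069 probe sets with 1 symbol, 198 with several, the rest unnamed), and all 35 members carry the same symbol in RefSeq by Entrez ID, which also gave the neighbouring genes.

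Members, lists and tests were chosen with earlier results of these data known. Full statistics were given for members with an unadjusted p of at most 0.05 or without overlap, above the Tag range on at least 3 arrays, and values of other listed genes for up to 4 per list with the smallest p. Marker genes of other cell types were read the same way. The scripts were tested on simulated data. The fit was repeated with array weights, without a trend, with a replicate block, after cyclic loess or quantile normalization, with 16 added before log2, without dim probe sets, with probe sets averaged per gene, with the methods' t-test, leaving out each array and, added after the data were seen, scaling to hybridization controls.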

Additional observations from a re-analysis of the deposited data

How the results depend on the processing

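The count of members past the adjusted threshold was 0 under all 16 alternatives run. At the unadjusted p the count of higher members, 2 as reported, was 1 without a trend (2.01% of all genes). It was 0 with scaling to the hybridization controls (0.783% of all genes). When single arrays were left out it was 1 to 2 (2.07% to 7.57% of all genes). The count of lower members, 2 as reported, was 4 with array weights, under which 10.5% of all genes were lower. It was 12 with scaling to the hybridization controls (24.3% of all genes). When single arrays were left out it was 0 to 3 (2.5% to 11.9% of all genes). Members separated upward, 2 as reported, numbered 1 after quantile normalization, 0 with the hybridization controls and 3 to 5 without single arrays, which leaves fewer arrays to overlap. Members separated downward, 5 as reported, numbered 14 with the hybridization controls and 5 to 8 without single arrays. No share of all genes is given beside these separated counts, so they are not read as a result about the members. The members' median moved to −0.46 with the hybridization controls, under which DSP turned to −0.12 and CTNNB1 to −0.083, and CTNNB1 turned to −0.14 in the mean of all its probe sets. The cause was not tested. DLC1, DMD, ITGAV, LAMB1 and TLN1 kept their direction under all 16 alternatives, DLC1 from 0.58 to 1.28, DMD from 0.57 to 1.35, ITGAV from −1.70 to −0.71, LAMB1 from −1.16 to −0.50 and TLN1 from −0.82 to −0.07. Their unadjusted p depended on the test. In the methods' t-test it was 0.0141 for DLC1, 0.046 for LAMB1 and 0.0124 for TLN1, but 0.0876 for ITGAV and 0.13 for DMD. In limma without a trend it was 0.0128 for DLC1 and 0.0492 for ITGAV, but 0.0558 for LAMB1, 0.0831 for DMD and 0.169 for TLN1. Over the whole array 14 probe sets were called in limma without Dox replicate 1, none of them a member.

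Animals of the same replicate number did not deviate together (correlations −0.0056, 0.024 and −0.055), so the numbers were not taken to pair them. With the replicate block, 1 member (DLC1) was higher and 2 were lower at the unadjusted p, and 0 passed the adjusted threshold. Signals within the Tag range have no order, which limits 8 members.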
